A study of Mus musculus with 16 samples.

Results

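The genes described are 10 that encode the contractile and calcium-handling proteins of slow muscle fibres, chosen by name: Myh7, Myl2, Myl3, Tnnc1, Tnni1, Tnnt1, Tpm3, Atp2a2, Sln and Myoz2. They were measured in mouse quadriceps by 16 probes of an Agilent array that holds 41174 probes, and all 10 were among the 15186 genes with a symbol that could be tested. The samples came from Klf15 KO mice given dexamethasone, WT mice given dexamethasone, KO mice given vehicle and WT mice given vehicle, with 4 animals in each of the 4 groups. Dexamethasone, a synthetic glucocorticoid, was injected into the peritoneum at 2 mg/kg in a single dose, the muscle was taken at 8 h, and each animal's RNA went on 1 array. The labels give no strain, age or sex, nor how Klf15 was disrupted, and do not say which piece of the quadriceps was taken. Klf15, the zinc-finger transcription factor that was targeted, averaged 0.51 ± 0.19 in KO dexamethasone muscle, 4.30 ± 0.36 in WT dexamethasone muscle, -0.68 ± 0.50 in KO vehicle muscle and 3.29 ± 0.40 in WT vehicle muscle (SD, n = 4 each), and every KO array was below every WT array. Levels throughout are log2 intensity relative to the 75th percentile of the same array, so a level of 0 is at that percentile.

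A skeletal muscle fibre is classed by the isoforms it builds its sarcomere from. In slow fibres the motor protein is the myosin heavy chain Myh7 with the light chains Myl2 and Myl3, thin filaments carry the slow troponin subunits Tnnc1, Tnni1 and Tnnt1 with tropomyosin Tpm3, and calcium is pumped back into the sarcoplasmic reticulum by Atp2a2. Fast fibres use Myh1, Myh2 or Myh4 and another set of light chains, troponins and the pump Atp2a1. Mouse quadriceps is mostly a fast muscle in which slow fibres are few and lie mainly in its deep part.

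The promoters of these genes have long been used to study fibre-type transcription, and a motif often discussed for muscle genes is the MCAT element, CATTCC, bound by TEAD factors. RefSeq promoter sequences of build GRCm38.p6, 300 bases from 250 before to 50 after a start site, were found for 8 of the 10 genes, with 12 start sites in all. Read on both strands, CATTCC occurred at 3 of these 12 start sites, in Myh7, Myl3 and Tnnc1, while 14.7% of all 32851 promoters of that length held it. The 250 bases before those 3 starts are shown because, on the probes used, Myh7 had the widest spread of the members, Tnnc1 a middling one and Myl3 a narrow one. Each is 5′ to 3′ on the strand of the gene, with CATTCC or its complement GGAATG in capitals, and lies at chr14:54994627-54994876 on the minus strand for Myh7, chr9:110763428-110763677 on the plus strand for Myl3 and chr14:31208062-31208311 on the plus strand for Tnnc1.
Myh7: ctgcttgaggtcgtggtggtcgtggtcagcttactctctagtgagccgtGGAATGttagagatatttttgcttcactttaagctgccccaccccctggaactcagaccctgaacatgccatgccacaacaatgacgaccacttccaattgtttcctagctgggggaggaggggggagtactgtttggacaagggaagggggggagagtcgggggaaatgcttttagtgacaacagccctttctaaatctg
Myl3: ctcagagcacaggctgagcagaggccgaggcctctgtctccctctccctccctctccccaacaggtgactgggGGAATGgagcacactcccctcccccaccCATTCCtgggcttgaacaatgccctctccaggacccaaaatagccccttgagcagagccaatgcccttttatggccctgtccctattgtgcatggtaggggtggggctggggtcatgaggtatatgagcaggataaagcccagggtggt
Tnnc1: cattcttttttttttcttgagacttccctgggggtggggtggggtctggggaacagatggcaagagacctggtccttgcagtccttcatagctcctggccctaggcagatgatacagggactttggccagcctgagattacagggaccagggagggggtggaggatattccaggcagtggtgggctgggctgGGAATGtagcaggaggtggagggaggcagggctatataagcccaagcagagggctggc
The Myh7 motif began 201 bases before the start shown, the Tnnc1 motif 58 bases before its start, and those of Myl3 177 and 149 bases before its start. The window of the other Myh7 start held no CATTCC on either strand. A CACCC box, CCCCACCC on either strand, lay in 5 of the 12 promoters, of Myh7 (both starts), Myl3, Tnnc1 and Tpm3, and in 9.99% of all promoters. The windows of the Myh7 starts overlap, and their CACCC box is the same site. The E-box CANNTG was in 12 of 12, and in 72.3% of all promoters. These are matches of letters and no binding was measured.

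All 16 probes were well above background on 16 of 16 arrays and none was saturated. Over the whole series 66.3% to 80.6% of spots were well above background, the 75th percentile of intensity ran from 554 to 1169, and arrays of a group correlated at 0.933 to 0.990 across 25209 tested features, a feature being the brightest probe of a gene or an unnamed probe. Every skeletal muscle marker listed (6 of 6) was above background on all 16 arrays. The arrays lay on 8 slides, with 1 to 3 arrays each. Arrays apart from the rest were WT dexamethasone replicate 3 and KO dexamethasone replicate 1, whose neutrophil markers had medians 7.86 and 6.55 above their 16-array means, and WT dexamethasone replicate 1, KO dexamethasone replicate 2, KO vehicle replicate 1 and WT vehicle replicate 3, which separated on the first principal component (34.2% of variance). By scan date, WT dexamethasone replicate 3 was in a batch of its own. It also lay alone on its slide and had the lowest 75th percentile, 554. The scanner's quality flag asked for evaluation of WT dexamethasone replicate 1 and KO dexamethasone replicates 2 and 4, and was in range for the rest. The number of arrays limits the precision of each value.

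Most of the slow-fibre transcripts, though not Myl3 or Tpm3 on the probes used, differed more between animals of a group than the median transcript did. Myh7, the motor of slow fibres, had levels of 6.17, 5.25, 0.06 and 5.51 in KO dexamethasone muscle (replicates 1 to 4, as in the lists that follow), 3.94, 6.85, 2.93 and 5.59 in WT dexamethasone muscle, -1.01, 4.63, 2.93 and 5.47 in KO vehicle muscle and 5.48, -0.86, -2.04 and 0.62 in WT vehicle muscle. Each group held arrays with high Myh7, arrays below 1 occurred in every group but WT dexamethasone, and the groups overlapped. From the lowest array, WT vehicle replicate 3, to the highest, WT dexamethasone replicate 2, the level spanned 8.89 on the log2 scale, a 474-fold range. Within the WT vehicle group alone the range was 184-fold, and within the other groups it was 68.7-fold in KO dexamethasone, 15.1-fold in WT dexamethasone and 89.3-fold in KO vehicle muscle. The within-group SD of Myh7 was 2.75, the 10th highest of 25209 features.

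**Figure D1:**
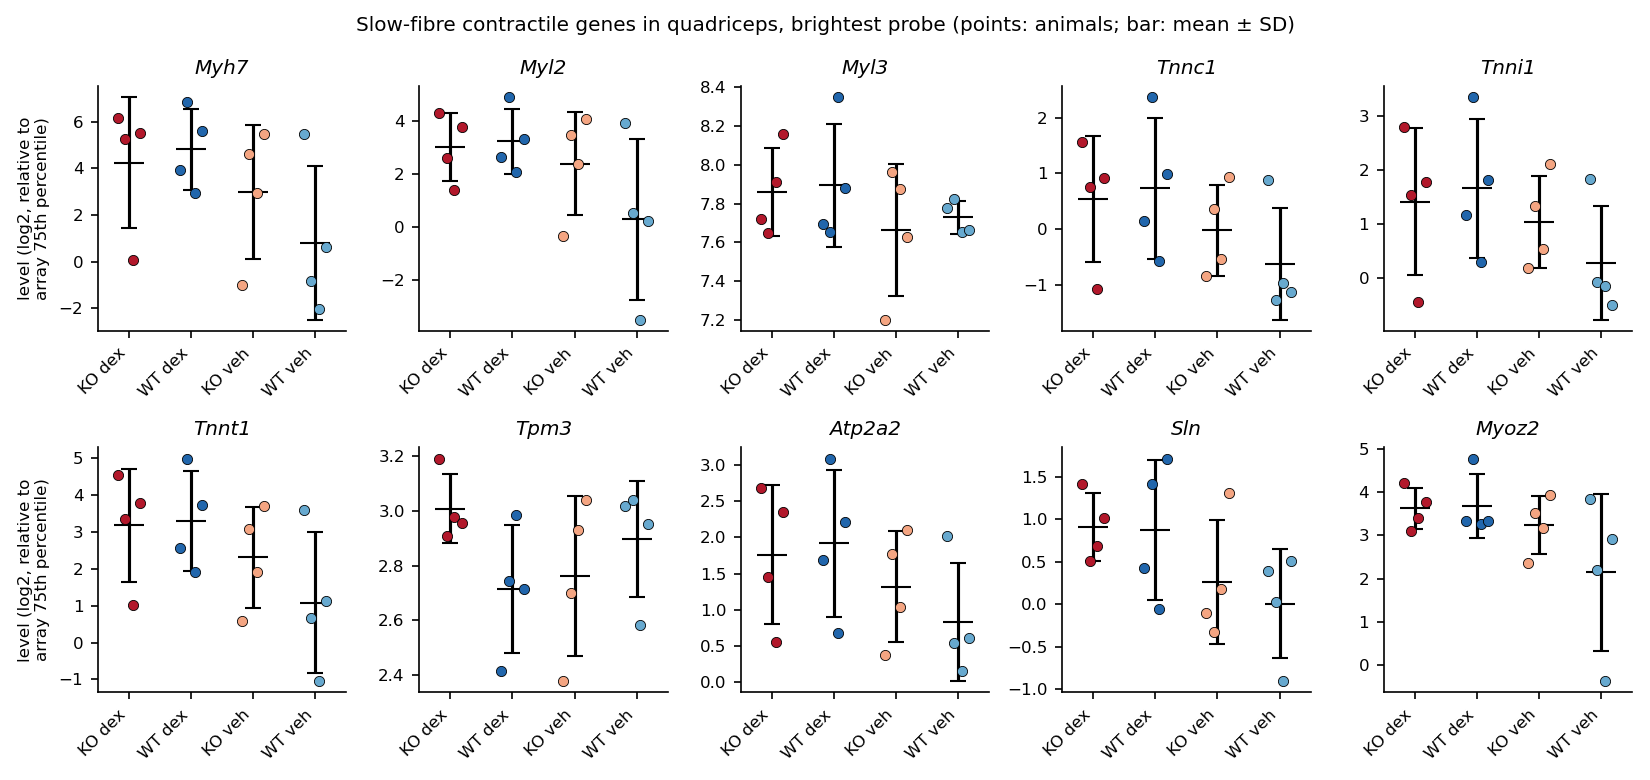
Level of each of the 10 slow-fibre genes (log2, relative to the 75th percentile of the array, brightest probe) in the 4 groups; points are animals and the bar is the mean ± SD, n = 4. Points of the groups overlap in each panel, except that for Sln every KO dexamethasone point lies just above every WT vehicle point, a separation whose share among all features was not computed. Myh7 spans from -2.04 to 6.85 while Tpm3 spans from 2.38 to 3.19.

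Among the light chains, Myl2, the regulatory light chain that sits beside the slow myosin head, showed the same wide spread. Its levels were 4.32, 2.61, 1.39 and 3.77 in KO dexamethasone muscle, 2.64, 4.92, 2.08 and 3.32 in WT dexamethasone muscle, -0.35, 3.47, 2.39 and 4.08 in KO vehicle muscle and 3.93, 0.52, -3.52 and 0.21 in WT vehicle muscle. The same 2 arrays were at the ends as for Myh7, 347-fold apart, and the within-group SD was 2.02. Myl3, the essential light chain, was different on the probe used: its levels lay between 7.65 and 8.16 in KO dexamethasone, 7.65 and 8.35 in WT dexamethasone, 7.20 and 7.96 in KO vehicle and 7.66 and 7.82 in WT vehicle muscle, a 2.21-fold range with an SD of 0.26. The other Myl3 probe, A_51_P434910, ranged 29.3-fold with an SD of 1.61. It was at 2.11, 0.47, -2.76 and 0.96 in KO dexamethasone muscle, 1.16, 2.002, -0.77 and 1.02 in WT dexamethasone muscle, -2.03, 1.26, -0.38 and 1.03 in KO vehicle muscle and 1.17, -1.80, -1.79 and -2.09 in WT vehicle muscle. The 2 Myl3 probes, annotated to the same transcript, had a correlation of 0.00 over the 16 arrays once group means were removed, so what the array says of Myl3 depends on the probe.

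Of the troponins, Tnnt1, which anchors the troponin complex to tropomyosin, ranged 65.4-fold. It was at 4.53, 3.35, 1.02 and 3.78 in KO dexamethasone muscle, 2.57, 4.98, 1.90 and 3.74 in WT dexamethasone muscle, 0.59, 3.07, 1.90 and 3.69 in KO vehicle muscle and 3.58, 0.66, -1.05 and 1.12 in WT vehicle muscle. The order of arrays was close to that of Myh7, with KO dexamethasone replicate 3, KO vehicle replicate 1 and WT vehicle replicates 2 to 4 low. Tnni1, the inhibitory subunit, ranged 14.5-fold on the probe used and 66.0-fold on its other probe, and the probes correlated at 0.93. Tnnc1, the calcium-binding subunit shared by slow and cardiac muscle, ranged 12.3-fold, from -1.26 on WT vehicle replicate 2 to 2.36 on WT dexamethasone replicate 2.

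Tpm3, the slow tropomyosin gene, which also makes cytoplasmic isoforms in other cells, also split by probe, though less fully than Myl3. On the probe used it varied 1.76-fold, from 2.91 to 3.19 in KO dexamethasone, 2.41 to 2.98 in WT dexamethasone, 2.38 to 3.04 in KO vehicle and 2.58 to 3.04 in WT vehicle muscle. Its other probe, A_51_P462153, varied 28.3-fold, with 1.31, -0.44, -0.92 and 1.04 in KO dexamethasone muscle, -0.50, 1.88, -0.84 and 0.98 in WT dexamethasone muscle, -2.16, 0.07, -0.50 and 0.65 in KO vehicle muscle and 0.82, -1.82, -2.95 and -1.32 in WT vehicle muscle. That probe was low on the same arrays as Tnnt1 and correlated at 0.98 with the mean of the other 9 genes. The 2 Tpm3 probes correlated at 0.53 with each other, and why the probes of Tpm3 and Myl3 differ was not tested.

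**Figure D2:**
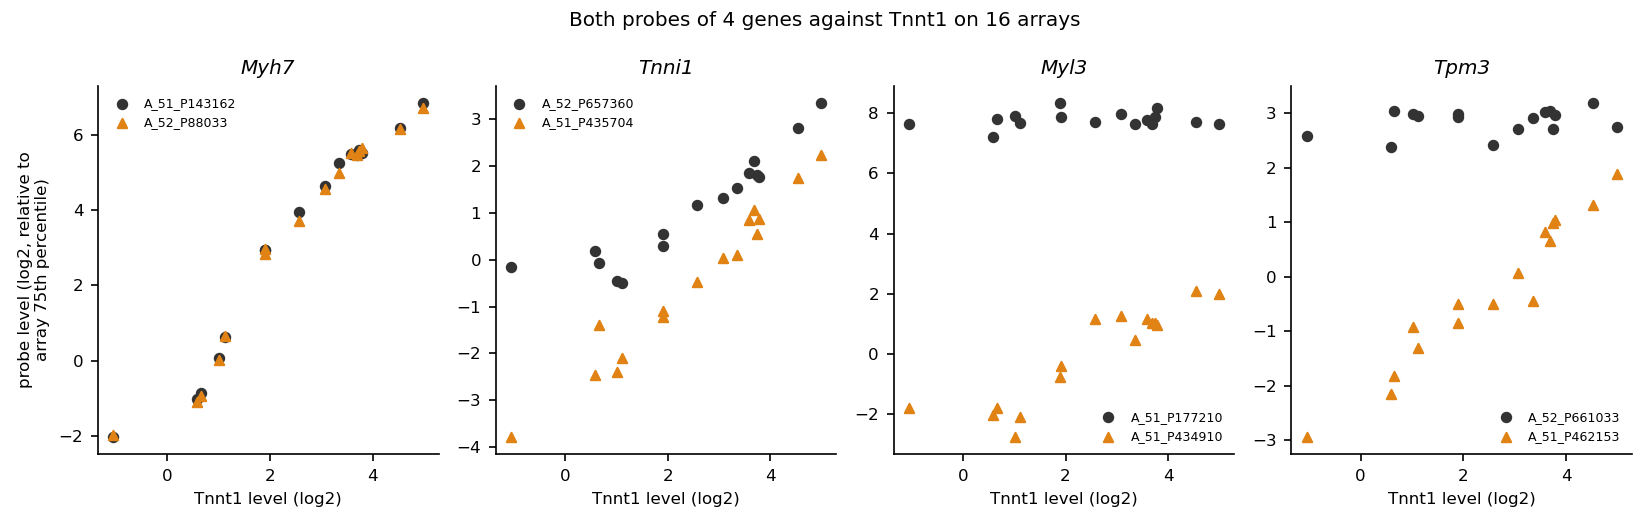
Levels of both probes of Myh7, Tnni1, Myl3 and Tpm3 (y axis, log2 relative to the array's 75th percentile) against the level of Tnnt1 (x axis) on the 16 arrays; circles are the probe used for the gene and triangles its other probe. Both probes of Myh7 and Tnni1 climb with Tnnt1. For Myl3 and Tpm3 the triangles do so over ranges of 29.3-fold and 28.3-fold, while the circles range only 2.21-fold and 1.76-fold.

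The calcium-handling genes and the Z-disc gene varied less than Myh7 and Myl2 and more than Myl3 on the probe used. Atp2a2, the calcium pump of slow fibres and heart, ranged 7.64-fold, between 0.56 and 2.68 in KO dexamethasone, 0.67 and 3.09 in WT dexamethasone, 0.38 and 2.10 in KO vehicle and 0.15 and 2.02 in WT vehicle muscle. Its other probes ranged 5.10-fold and 2.17-fold and correlated with it at 0.91 and 0.84. Sln, a small peptide that inhibits the pump, was at 1.41, 0.51, 0.69 and 1.02 in KO dexamethasone muscle, 0.43, 1.41, -0.05 and 1.71 in WT dexamethasone muscle, -0.11, -0.33, 0.19 and 1.31 in KO vehicle muscle and 0.39, 0.03, -0.90 and 0.51 in WT vehicle muscle. It spanned 6.14-fold. Its groups overlapped except KO dexamethasone and WT vehicle, which differ in both genotype and treatment: the lowest KO dexamethasone array, at 0.5102, was just above the highest WT vehicle array, at 0.509. The share of all features that did not overlap between those groups was not computed. In the pairs of groups that were compared, 6.36% to 17.0% of all features did not overlap. Myoz2, a Z-disc protein that binds calcineurin, ranged 36.0-fold, with WT vehicle replicate 3 at -0.39 and the other 15 arrays between 2.20 and 4.79.

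The median within-group SD of the 10 genes was 1.06, against 0.28 over all 25209 features, and 6 of the 10 had an SD above 1, against 16.1% of all features. Differences among the 4 groups made up a median of 27.9% of the variance of the 10 genes and 27.8% of that of all features. Most of the 10 genes thus stood out by their spread between animals of a group, though not Myl3 or Tpm3 on the probes used. The median share that followed the groups was near that of all features. With 4 arrays in a group, part of such a share arises without any group effect. Slide means made up a median of 53.5% of the within-group variance of the 10 genes, over the 13 arrays that shared a slide. The median was 66.7% for all features, and the share of Myh7 was 39.5%. Because these slides held only 2 or 3 arrays each, part of such a share arises without any slide effect. The share to expect without a slide effect was not computed.

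**Figure D3:**
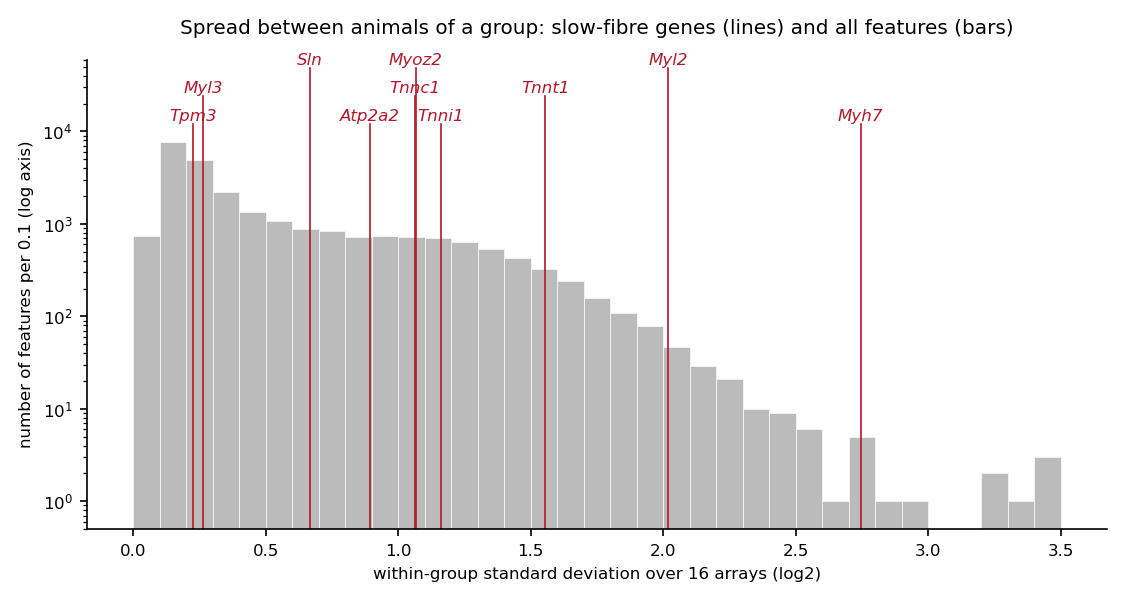
Number of features (log axis) by within-group standard deviation over the 16 arrays (log2), with the 10 slow-fibre genes marked by lines. Myh7 (2.75), Myl2 (2.02) and Tnnt1 (1.55) lie in the right tail of the 25209 features, and Tpm3 (0.22) and Myl3 (0.26) lie near the median of 0.28.

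The variable members moved together from array to array. With group means removed, Tnnt1 correlated at 0.99 with the mean of the other 9 genes over the 16 arrays (Spearman's rho 0.99, and 0.99 without the 2 arrays farthest from the median). The same correlation was 0.95 for Myh7, 0.94 for Atp2a2, 0.94 for Myl2, 0.89 for Tnnc1, 0.88 for Tnni1, 0.79 for Myoz2, 0.67 for Sln, 0.50 for Tpm3 and 0.03 for Myl3. Of 45 pairs of members 15 had a correlation above 0.8, and the median was 0.65. These are descriptions over 16 arrays that share slides, amplification and scaling. Averaged over the 10 genes as a deviation from the 16-array mean, the slow-fibre level ran from -2.36 on WT vehicle replicate 3 to 1.72 on WT dexamethasone replicate 2. It was 1.36, 0.42, -0.85 and 0.91 in KO dexamethasone muscle, 0.11, 1.72, -0.31 and 0.84 in WT dexamethasone muscle, -1.42, 0.35, -0.25 and 0.93 in KO vehicle muscle and 0.78, -1.23, -2.36 and -0.999 in WT vehicle muscle. Arrays of every group fell on both sides of 0, and in the WT vehicle group replicate 1 alone was above it. The genes were not scaled before averaging, so those with the widest spread weigh most in the mean. The median deviation of the 10 genes was -1.36 on WT vehicle replicate 3 and 1.92 on WT dexamethasone replicate 2. In whole-muscle RNA, fewer slow fibres and less slow-fibre RNA per fibre cannot be told apart, and neither can the piece of muscle sampled and the animal.

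**Figure D4:**
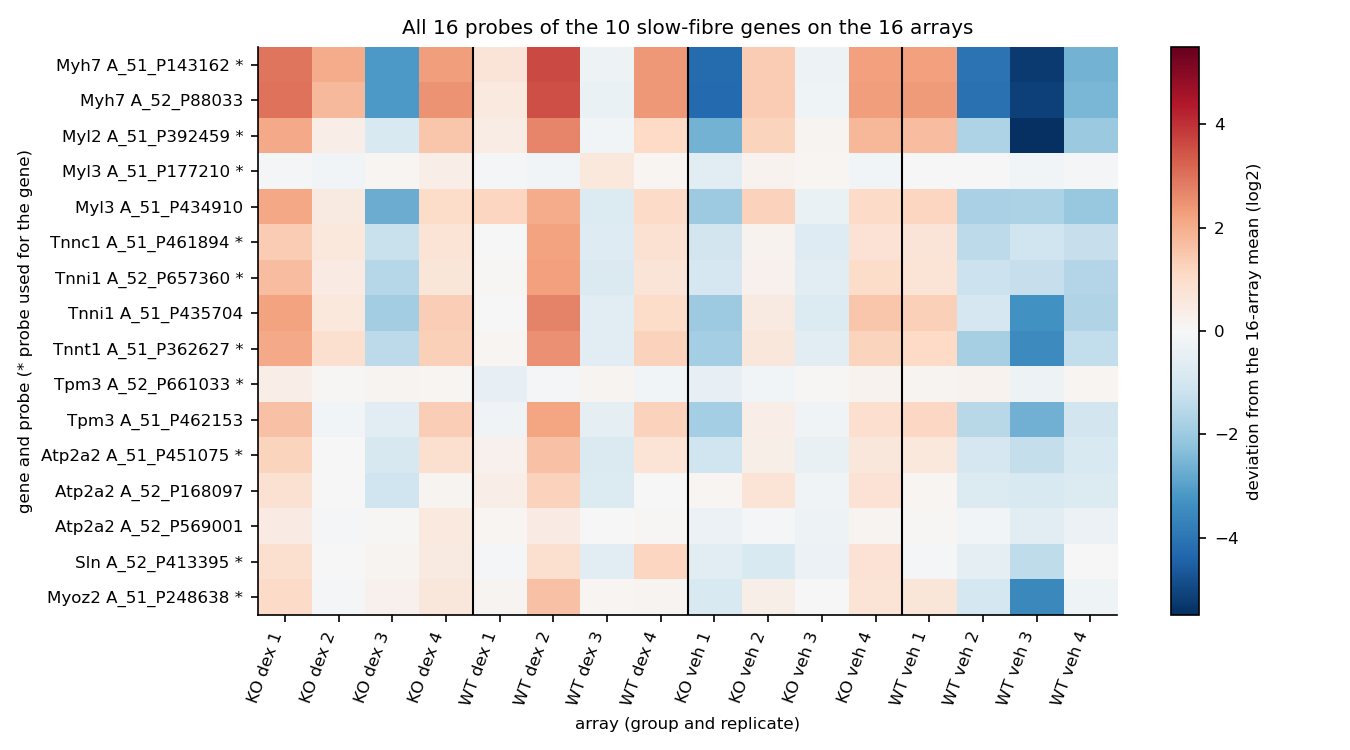
Deviation of each of the 16 probes (rows; the probe used is starred) from its mean over the 16 arrays (columns, by group and replicate), on the log2 scale. Whole columns change colour together in every group, from WT dexamethasone replicate 2 (mean of the 10 genes 1.72) to WT vehicle replicate 3 (-2.36), while the Myl3 and Tpm3 probes used stay pale.

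Among 15134 other genes with a symbol, those most like the mean of the 10 over the 16 arrays were Myh6 (Pearson's r 0.98), Pdlim1 (0.88), Magt1 (0.87), Ntng2 (0.86), Adprhl1 (0.85), Wars2 (0.83), Idh2 (0.83), Chrna2 (0.83), Cd36 (0.82) and Casq2 (0.82). Myh6, the atrial myosin heavy chain, ranged 37.4-fold. It is a near-identical copy and neighbour of Myh7, so its value is uncertain. Idh2 is a mitochondrial isocitrate dehydrogenase, Cd36 takes up fatty acids, and Casq2 is the calsequestrin of cardiac and slow muscle. Whether the genes of this list share a function was not tested. Ntng2 and Chrna2 were dim, with lowest levels of -8.30 and -6.58. The genes were picked as the highest of 15134 correlations over 16 arrays, so part of their height comes from the choice. Smc6 (-0.88), Vbp1 (-0.84), Apbb2 (-0.84), Zfand6 (-0.83) and Spen (-0.83) were the most opposite, over ranges of 1.36-fold to 1.98-fold.

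Other cell types were set beside this because some of the slow isoforms, such as Tnnc1 and Atp2a2, are also found in the heart. The slow-fibre mean correlated at -0.01 with the median of 8 heart markers, at -0.01 with that of 8 neutrophil markers, and at 0.32, 0.31, 0.23 and -0.18 with those of adipocyte, nerve, smooth muscle and tendon. Of the heart genes Myh6 followed the slow-fibre mean on both of its probes, while the probes of Nppa, Nppb, Myl7, Myl4, Tnni3, Tnnt2 and Ryr2 had correlations of -0.55 to 0.27. Ryr2, the cardiac calcium release channel, was above background on 5 of 16 arrays with one probe and on 0 with the other. The correlation was 0.04 with the share of spots above background and -0.58 with the first principal component (-0.44 without the 2 farthest arrays). The part of that component in the result was not tested.

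The comparisons ask whether the glucocorticoid changed these transcripts and whether the change depended on Klf15. In WT muscle 9 of 10 members were higher with dexamethasone than with vehicle, but none passed an adjusted p of 0.05 in limma, where 10.7% of all features did. The median change of the 10 was 1.37 on the log2 scale, against -0.08 over all features. Myh7 averaged 4.83 ± 1.74 in WT dexamethasone and 0.80 ± 3.30 in WT vehicle muscle (SD, n = 4 each). The log2 difference was 4.03 with an SE of 1.83, or 16.3-fold (limma adjusted p = 0.198). Myl2 averaged 3.24 ± 1.23 in WT dexamethasone and 0.28 ± 3.04 in WT vehicle muscle, a difference of 2.95 with an SE of 1.35 (limma adjusted p = 0.199). These 2 members had an unadjusted p under 0.05, as had 24.2% of all features. WT dexamethasone and WT vehicle animals overlapped for 10 of 10 genes, and 17.0% of all features did not overlap.

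Tnnt1 differed by 2.22 (SE 1.04), Myoz2 by 1.53 (SE 0.71), Tnni1 by 1.38 (SE 0.78), Tnnc1 by 1.35 (SE 0.71), Atp2a2 by 1.08 (SE 0.60) and Sln by 0.87 (SE 0.45), with limma adjusted p from 0.208 to 0.304. Myl3 differed by 0.16 (SE 0.18) and Tpm3 by -0.18 (SE 0.16) on the probes used. The other probe of Myl3 gave 1.98 (SE 1.07, limma adjusted p = 0.273), and that of Tpm3 gave 1.69 (SE 0.87, limma adjusted p = 0.2445), the opposite direction to the Tpm3 probe used. WT vehicle replicate 1, with Myh7 at 5.48, lay among the dexamethasone animals, and the other 3 WT vehicle arrays, at or below 0.62, lay below all of them. Without WT dexamethasone replicate 2 the median difference was 0.81, and without WT vehicle replicate 1 it was 1.88.

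Slide changed this comparison. With slide as a random block (consensus correlation 0.574) 6 members passed for dexamethasone in WT muscle, where 16.1% of all features did: Tnnt1 (adjusted p = 0.0409), Myl2 (0.0438), Tnni1 (0.044), Tnnc1 (0.0469), Myh7 (0.0479) and Atp2a2 (0.0479) in limma. The consensus correlation is a single value fitted over all features. Slide means made up 26.7% (Tnnc1) to 61.8% (Myl2) of the within-group variance of these 6 genes, against a median of 66.7% over all features. The correlation was not fitted to these genes alone. With slide as a fixed block the median difference was 3.096 and none passed, the lowest limma adjusted p being 0.0579. Only slide 5 held both WT groups, and there WT dexamethasone replicate 2 exceeded WT vehicle replicate 4 in 8 of 10 genes by a median of 2.98.

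In KO muscle 10 of 10 members were higher with dexamethasone, by a median of 0.50 (0.08 over all features), and none passed, where 10.2% of all features did. The smallest limma adjusted p was 0.450. Myh7 averaged 4.25 ± 2.82 in KO dexamethasone and 3.004 ± 2.88 in KO vehicle muscle (SD, n = 4 each), a difference of 1.24 with an SE of 1.83 (limma adjusted p = 0.805). Sln, at 0.91 ± 0.40 against 0.27 ± 0.73, differed by 0.64 (SE 0.45), and Tnnt1 by 0.86 (SE 1.04). Of the probes not used, A_52_P168097 of Atp2a2 went the other way, at -0.39 (SE 0.45), and the rest were higher with dexamethasone. KO dexamethasone and KO vehicle animals overlapped for 10 of 10 genes (15.9% of features did not). Slides 4, 6 and 7 held both KO groups, and the dexamethasone animal was higher in 10 of 10 genes on each, by medians of 0.43 on slide 4, 1.27 on slide 6 and 1.22 on slide 7, whose 3 arrays were all apart on the first principal component. Those slides held neither KO dexamethasone replicate 3, whose mean of the 10 genes was -0.85, nor KO vehicle replicate 2, at 0.35. Because the members moved together, the 10 genes on a slide are not separate observations. With slide as a fixed block the median was 1.03 and none passed. The median of 0.50 became 0.11 without KO vehicle replicate 1, 0.20 without KO dexamethasone replicate 1, 0.803 without KO vehicle replicate 4 and 0.92 without KO dexamethasone replicate 3. It was 0.18 without the 4 arrays apart on the first principal component.

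**Figure D5:**
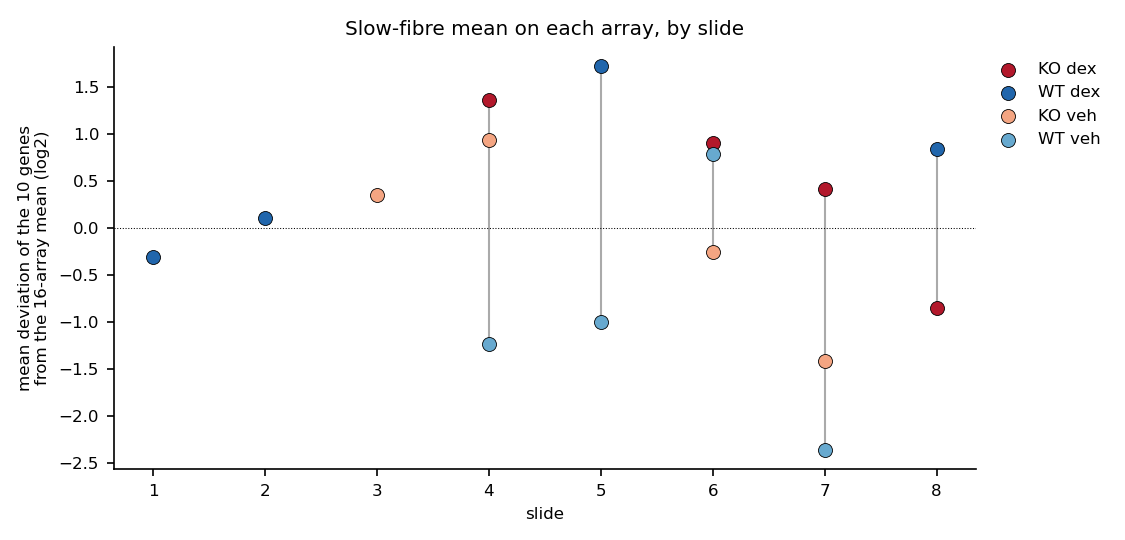
Mean deviation of the 10 slow-fibre genes from their 16-array means (log2) on each array, by slide, coloured by group; grey lines join arrays of 1 slide. On slides 4, 6 and 7 the KO dexamethasone array is above the KO vehicle array, and on slide 7, which held WT vehicle replicate 3, the values run from -2.36 to 0.42.

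Between genotypes under vehicle, 8 of 10 members were higher in KO than in WT muscle, by a median of 0.68 (-0.08 over all features), and none passed, where 0.262% of all features did. Myh7 averaged 3.004 ± 2.88 in KO vehicle and 0.80 ± 3.30 in WT vehicle muscle, a difference of 2.203 with an SE of 1.83 (limma adjusted p = 0.847). Myl2 differed by 2.12 (SE 1.35) and Myoz2 by 1.09 (SE 0.71). The lower members, Myl3 and Tpm3, differed by -0.06 and -0.14 on the probes used. Their other probes gave 1.10 (SE 1.07) and 0.83 (SE 0.87), the opposite direction. The groups overlapped for 10 of 10 genes (6.36% of features did not). This comparison and that of dexamethasone in WT muscle share the WT vehicle arrays. Within slides the median was 1.96 on slide 4, -1.14 on slide 6 and 0.57 on slide 7, so the direction was not the same on the 3 slides.

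Between genotypes under dexamethasone, 2 of 10 members were higher and 8 lower in KO muscle, by a median of -0.14 (0.06 over all features), and none passed, where 1.84% of all features did. Myh7 differed by -0.58 (SE 1.83). Tpm3, on the probe used, differed by 0.29 (SE 0.16) and had the smallest limma adjusted p, 0.458. Its other probe gave -0.13 (SE 0.87). The groups overlapped for 10 of 10 genes (7.87% of features did not). The sign of the median rested on single arrays: it was 0.31 without WT dexamethasone replicate 2, 0.32 without KO dexamethasone replicate 3 and -0.58 without WT dexamethasone replicate 3. It was -0.92 without the 2 arrays with high neutrophil markers, and on slide 8, the only slide with both groups, the KO animal was lower in 7 of 10 genes, by a median of -1.80. With slide as a fixed block it was -1.60, and none passed.

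The response to dexamethasone in KO muscle minus that in WT muscle, the interaction, had a median of -0.90 over the 10 genes (0.13 over all features). It was -2.78 (SE 2.59) for Myh7 and 0.43 (SE 0.23) for Tpm3 on the probe used, but -0.96 (SE 1.23) on the other Tpm3 probe. No member passed (smallest limma adjusted p = 0.481), nor did any feature (0%), although 2893 features had an unadjusted p under 0.05. A test of any difference among the 4 groups gave F of 0.69 to 2.001 for the members with limma adjusted p from 0.391 to 0.784, where 15.5% of features passed. In order of group means the WT dexamethasone and KO dexamethasone groups were highest for Myh7, followed by KO vehicle and WT vehicle. Over the 10 genes, 2 of 30 gaps between neighbouring groups were larger than the pooled SD, and the widest was 1.05 SD.

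Isoforms that pair with these genes, mostly those of fast fibres, had a median within-group SD of 0.27, near the 0.28 of all features, with 0.69 for the widest, Myh2. Of 13 partner isoforms none passed with dexamethasone in WT (10.7% of all features did) or KO muscle (10.2%), nor between genotypes under vehicle (0.262%) or dexamethasone (1.84%). The fast-fibre list of 16 genes had a median within-group SD of 0.25, and its median correlation with the slow-fibre mean was -0.41. In 6 of the 16 the correlation was below -0.5, and in 2 without the 2 farthest arrays (Casq1 and Tnnc2). How many of all features lay below -0.5 was not computed. Actn3, the actinin of fast fibres, correlated at -0.67, Pvalb, a calcium buffer of the fastest fibres, at -0.65, Tnnc2 at -0.60, Mylk2 at -0.57, Tnni2 at -0.54 and Casq1 at -0.53, over ranges of 1.63-fold to 2.21-fold. Myh2, the heavy chain of the oxidative fast fibres, had a correlation of 0.58 and a 7.76-fold range, but the correlation was 0.24 without the 2 farthest arrays. It averaged 8.02 ± 0.08 in KO dexamethasone, 8.02 ± 0.06 in WT dexamethasone, 7.85 ± 0.30 in KO vehicle and 7.15 ± 1.34 in WT vehicle muscle (SD, n = 4 each), so that its spread lay mostly in the WT vehicle group. Pln, another inhibitor of Atp2a2, correlated at 0.67 (0.58 without the 2 farthest arrays). The correlations of the heavy chains Myh1 (0.07) and Myh4 (-0.09) were near 0.

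Of 14 further slow-fibre genes 13 could be tested, and 6 correlated above 0.5 with the mean of the 10: Casq2 at 0.82, Myom3 at 0.76, Ankrd2 at 0.71, Mb, which is myoglobin, at 0.68, Actn2 at 0.59 and Csrp3 at 0.52. Without the 2 farthest arrays 4 stayed above 0.5, while Actn2 was at 0.29 and Csrp3 at 0.18. The share of all features above 0.5 was not computed. Csrp3, a Z-disc protein, ranged 30.0-fold and the stretch-responsive Ankrd2 19.6-fold. One of the 13 passed in a comparison: Myl6b was lower with dexamethasone in KO muscle, by -0.88 on the log2 scale (SE 0.21, limma adjusted p = 0.0174), where 4.55% of all features were lower, so that 1 of 13 is near the background. That call held under 26 of 29 alternatives and was lost without KO vehicle replicate 1 or KO dexamethasone replicate 3 and under normexp background correction, where the difference was 0.02.

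Some regulators of fibre type passed the test. With dexamethasone in WT muscle 1 of 24 rose and 5 fell, where 5.04% of all features rose and 5.63% fell, and in KO muscle 2 rose and 5 fell, where 5.68% rose and 4.55% fell. Ppargc1a, the PGC-1α coactivator that promotes slow-fibre and mitochondrial genes, averaged 1.82 in KO dexamethasone, 1.28 in WT dexamethasone, 2.37 in KO vehicle and 2.12 in WT vehicle muscle. It fell by 0.85 (SE 0.11, limma adjusted p = 0.000385) in WT and by 0.55 (SE 0.11, limma adjusted p = 0.0064) in KO muscle, and was higher by 0.54 in KO than in WT muscle under dexamethasone (SE 0.11, limma adjusted p = 0.0256). Of these calls that in WT muscle held under 29 of 29 alternatives, that in KO muscle under 28 of 29 and that between genotypes under 16 of 29. Its relative Ppargc1b fell by 1.15 in WT muscle (SE 0.15, limma adjusted p = 0.000286) and by 1.44 in KO muscle (SE 0.15, limma adjusted p = 3.99e-05). Its call in WT muscle was lost with slide as a fixed block (limma adjusted p = 0.0507) and held under the other 28 of 29 alternatives, and that in KO muscle held under 29 of 29. Hdac4, a repressor of MEF2 factors, fell by 0.86 in WT (SE 0.15, limma adjusted p = 0.00214) and 0.92 in KO muscle (SE 0.15, limma adjusted p = 0.0012). Dio2, the deiodinase that makes active thyroid hormone, rose by 1.47 in WT and 1.79 in KO muscle (SE 0.27 each, limma adjusted p = 0.00313 and 0.0007). In WT muscle the calls of Hdac4 and Dio2 held under 26 and 27 of 29 alternatives, with slide as a fixed block and normexp among those that ended them, and in KO muscle under 29 of 29. Across animals within groups the 24 regulators had a median correlation of 0.15 with the slow-fibre mean, with 4 above 0.5 and 4 below -0.5. Those above were the estrogen-related receptor Esrrg (0.74), Ppargc1a (0.65), Prox1 (0.65, above background on 11 of 16 arrays) and Ppard (0.59), and those below were Tbx15 (-0.64), Nfatc2 (-0.58), Eya1 (-0.55) and Myod1 (-0.52). Without the 2 farthest arrays 4 were above 0.5 and 5 below -0.5, but not all were the same genes. Ppard (0.48) and Nfatc2 (-0.46) dropped out, and Tead4 (0.71), Six4 (-0.78) and Mef2c (-0.53) came in. For these limits, too, the share of all features was not computed.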

How the data were processed

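RNA from mouse quadriceps was amplified and labelled with Cy3, per the labels' protocols, and each of the 16 samples was hybridised to 1 array. Per the file headers, the authors' scanner files were written by Agilent Feature Extraction 10.7.3.1 with a build mm9 grid, and hold linear spot intensity. The processed signal is background-subtracted and not normalized between arrays. A deposited log2 table has column medians of 6.85 to 6.87 and, on every array, the same probe order as the median signal of the scanner (Spearman correlation 1). Its scaling and centring are unknown: neither the labels nor the file header gives them.

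Levels were log2 processed signal less the 75th percentile of the array. Control spots and outlier spots were left out, spots of a probe averaged, and probes kept if well above background on at least 4 arrays and measured on at least 12. Of 41174 probes 24844 took a symbol through a RefSeq table (GRCm38.p6, used for names), matched by accession. The brightest probe stood for a gene. limma 3.58.1 in R 4.3.3 fitted 4 group means to the 16 arrays, with eBayes, two-sided p and Benjamini-Hochberg adjustment over 25209 features at 0.05. Descriptive correlations used deviations from group means. Tables and figures used Python 3.11.15, numpy 2.4.6, pandas 2.3.3, scipy 1.17.1 and matplotlib 3.10.9. The fit was tested on simulated data with known changes.

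Members and gene lists were chosen with earlier results of these data known. Named are the 10 members and their probes, their fast partner isoforms, the 10 genes most like and the 5 least like the members' mean, at most 4 called members of each further list, and Klf15. Genes of those lists named for a correlation, and the array groups in the text, were chosen after values were seen. Alternatives were median and quantile scaling, normexp (offset 50, on median signal and median background, since no mean signal column was used), the deposited values, other filters and probe rules, slide and replicate blocks, and left-out arrays. The labels' replicate numbers were checked: same-numbered arrays had correlations of deviations from -0.663 to 0.662, and 1 of 16 arrays correlated best with its own number, so they were not taken to pair the samples.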

Additional observations from a re-analysis of the deposited data

Results flagged for a closer look

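A gap test on each probe and group of 4 arrays (Dixon's ratio above its 95% critical value) marked 5 of 64 groups, and chance marks about 1 in 20. Myh7 on KO dexamethasone replicate 3 was at 0.06, with the other 3 arrays of that group between 5.25 and 6.17. In WT vehicle muscle replicate 1 stood above the others for Tnnc1, at 0.88 against -1.26 to -0.95, for the Myl3 probe A_51_P434910, at 1.17 against -2.09 to -1.79, and for the Atp2a2 probe A_52_P168097, at -1.49 against -2.43 to -2.32. Myoz2 on WT dexamethasone replicate 2 was at 4.79, with the others between 3.27 and 3.33. These arrays also had high or low values of the mean of the 10 genes, which was -0.85 on KO dexamethasone replicate 3, 1.72 on WT dexamethasone replicate 2 and 0.78 on WT vehicle replicate 1. That mean contains the flagged values of Myh7, Tnnc1 and Myoz2, so it is not independent of them. The cause was not tested.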

How the results depend on the processing

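Of 1780 values of single members under alternatives, 1704 kept their direction and side of the threshold, 70 changes that had not passed took the other sign, and 6 passed only under the random slide block, which gave 6 members past the threshold for dexamethasone in WT muscle. The members' median difference was 3.096 with slide as a fixed block for dexamethasone in WT, 1.03 for dexamethasone in KO, -1.60 for KO against WT under dexamethasone and -2.01 for the interaction. Over all features, the count past the threshold for dexamethasone in WT was 2691, and became 193 with normexp, 767 with the fixed and 4049 with the random slide block, and 1438 with only the 8 arrays of both groups. For dexamethasone in KO it was 2580, and 1437 with median scaling, 414 with normexp, 5081 with the random block and 1556 without the 4 arrays apart on the first component. For KO against WT under vehicle it was 66, and 38 with median scaling, 17 with normexp, 19 with the fixed and 448 with the random block, 43 without the 4 arrays and 30 with only 8 arrays. For KO against WT under dexamethasone it was 464, and 206 with median scaling, 48 with normexp, 928 with every probe, 45 with the fixed and 952 with the random block, 235 without the neutrophil-high arrays, 175 without the 4 arrays and 112 with only 8 arrays. For the interaction it was 0, and 1 with the deposited values and 310 with the random block. For any difference among groups it was 3917, and 2423 with median scaling, 573 with normexp, 2076 with the fixed and 6716 with the random block, and 2478 without the 4 arrays. With the replicate number as a block, KO against WT under dexamethasone had 290 calls, no member passed and the other calls and member medians stayed within 1.5 times. In the fixed block, arrays alone on their slide add nothing to a contrast, and for other settings the cause was not tested.

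Leaving out 1 array at a time, no member passed in any comparison. Feature counts ran from 1626 (without WT vehicle replicate 2) to 2686 for dexamethasone in WT, 1828 to 2706 in KO, 44 to 70 and 281 to 478 (299 and 281 without KO dexamethasone replicates 2 and 3) for KO against WT under vehicle and dexamethasone, 0 to 5 (5 without KO vehicle replicate 4) for the interaction, and 3079 to 3737 for any difference. Member medians ran from 0.81 to 1.88, 0.11 to 0.92, 0.34 (without KO vehicle replicate 4) to 1.19 (without WT vehicle replicate 1), -0.58 to 0.32 and -1.41 to -0.32 for the first 5 in that order. The interaction was -0.32 without KO dexamethasone replicate 3, -0.35 without WT dexamethasone replicate 2, -0.54 without WT vehicle replicate 3, -0.56 without KO vehicle replicate 4 and -1.41 without WT vehicle replicate 1. KO against WT under vehicle was 0.38 without WT vehicle replicate 3. The members' median share of variance between groups ran from 18.6% (without WT vehicle replicate 3) to 37.8% (without WT vehicle replicate 1). Median scaling moved the median change of all features to 0.16 for dexamethasone in WT, against -0.08 in the values reported, and normexp moved it to 0.14. All 16 member probes were above background on each array, and normexp gave a median change of the members of 1.16 for dexamethasone in WT.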
